A study of Mus musculus with 4 samples.

Results

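The Egr and Nr4a genes were described in the hypothalamus of mice fed a western diet (WD) with and without the taste receptor gene Tas1r3. They comprise the zinc-finger factors Egr1, Egr2, Egr3 and Egr4 and the orphan nuclear receptors Nr4a1, Nr4a2 and Nr4a3. The 7 genes were chosen by name because most of them had been seen to be higher in the knockout libraries of these same data. Their difference between the groups is therefore given as a description, without a test. RefSeq transcripts were summed per gene symbol, which gave 16329 named genes, and 6 of the 7 listed genes were among them. Egr2 had no transcript in the values used here and was not analysed here. All 6 genes passed the filter on low counts, which kept 14325 genes.

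Hypothalamic RNA of male C57BL/6 mice was sequenced after the mice had spent 12 weeks on WD, which combined chow labelled as 60% fat with drinking water holding 30% sucrose. The groups were wild-type littermates (WT WD, 2 libraries) and mice homozygous for a conventional Tas1r3 null allele (Tas1r3-/- WD, 2 libraries), so Tas1r3 was missing from every tissue from conception onwards. The mice were matched for age and weight before the diet, and weight at sampling is not in the values used here. In both groups they were euthanized with urethane before the hypothalamus was frozen. The labels number the libraries within a group but do not say that each came from a separate mouse, so the spread between libraries may be partly technical. Library depth, as total estimated counts, was 5917470 for the first and 6177210 for the other WT WD library, and 6273772 for the first and 5874782 for the other knockout library. Levels are given as CPM, that is, a gene's share of its library's named-gene counts, scaled by edgeR's TMM factors. A count of 0 allows up to 3 counts, or between 0.486 and 0.525 CPM, for counting error only.

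Egr and Nr4a factors are immediate early gene products. A stimulus that reaches a neuron, such as calcium entry, a growth factor or cyclic AMP, acts through kinases on factors already in the nucleus, chiefly SRF with its ternary complex partners, CREB and MEF2. These switch on Egr and Nr4a transcription within minutes without new protein synthesis, and the mRNAs are short-lived. Egr proteins bind GC-rich sites through zinc fingers and are held in check by the corepressors Nab1 and Nab2, which are themselves induced by Egr proteins. Nr4a proteins bind DNA without a known natural ligand, as monomers, as dimers or, for Nr4a1 and Nr4a2, with a retinoid X receptor (RXR). In the hypothalamus and pituitary they act on stress-axis genes such as Crh and Pomc, and in midbrain dopamine neurons Nr4a2 maintains the transmitter genes.

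Sequences before annotated starts of the genes are shown because CREB-type elements are the textbook route to several of them. RefSeq windows of 250 bases before an annotated start were held for Egr4, Nr4a1, Nr4a2 and Nr4a3, and Egr1 and Egr3 are named only. The window of Nr4a1, 101164477 to 101164726, lies inside the annotated gene, which begins at 101151980, so it precedes an internal start. Each window had 1 exact match on GRCm39. The short CRE core TGACG, read on either strand as TGACG or CGTCA, occurred 2 times in the window of Egr4 and 4 times in each of Nr4a1, Nr4a2 and Nr4a3. Of all 32851 windows of the same length, 17.8% held at least 1 core and 3.9% held at least 2, and of the 9178 windows with a GC content of at least 60%, 27.1% held at least 1. The GC contents of the 4 windows were 68.0%, 74.4%, 80.0% and 63.6% for Egr4, Nr4a1, Nr4a2 and Nr4a3. Shown are the stretches of 3 windows that lie outside annotated exons of their gene, 5′ to 3′, with the CRE cores in capitals. The window of Nr4a2 lay within annotated exons and is not printed.
Egr4, chr6:85490676-85490821, minus strand: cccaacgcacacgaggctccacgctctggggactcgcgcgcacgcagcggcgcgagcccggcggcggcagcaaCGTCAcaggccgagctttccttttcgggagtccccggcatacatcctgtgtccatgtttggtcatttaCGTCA
Nr4a1, chr15:101164477-101164656, plus strand: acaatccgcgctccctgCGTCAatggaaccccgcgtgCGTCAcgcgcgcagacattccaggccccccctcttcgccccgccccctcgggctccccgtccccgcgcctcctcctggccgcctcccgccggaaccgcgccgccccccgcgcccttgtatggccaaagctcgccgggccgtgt
Nr4a3, chr4:48045055-48045152, plus strand: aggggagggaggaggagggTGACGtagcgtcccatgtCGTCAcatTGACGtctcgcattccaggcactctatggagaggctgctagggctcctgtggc
The stretch of Nr4a3 held 3 cores within its first 50 bases, and those of Egr4 and Nr4a1 held 2 each. The full palindrome TGACGTCA, which contains the core on both strands, was absent from all 4 windows and was present in 1.55% of all windows and 2.72% of the GC-rich ones. The Nr4a monomer site AAAGGTCA and the CArG box of SRF (CC, then 6 bases of A or T, then GG) were also absent from the 4 windows, and were present in 1.34% and 1.47% of all windows and in 0.436% and 0.937% of the GC-rich ones. An Egr site (GCGTGGGCG or GCGGGGGCG) occurred 1 time, in the window of Nr4a1, against 3.06% of all windows and 9.47% of the GC-rich ones. The letters TATAAA occurred 1 time, in the window of Nr4a2, against 12.4% of all and 2.58% of the GC-rich windows. They were read on the strand opposite to the gene, as TTTATA, from 164 to 159 bases before the start. Among the other immediate early genes listed here, 14 of 22 with a window held the core, or 65.5% of their 29 windows. A match is a run of letters and says nothing of binding.

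Tas1r3, the gene deleted in the knockout, checks the genotype labels. It lies on the minus strand of chromosome 4 at 155943725 to 155947819 (GRCm39) and was at 6.02 and 4.46 CPM in the WT WD libraries and at 1.13 and 1.23 CPM in those of the knockout. The means were 5.24 ± 1.11 and 1.18 ± 0.0728 CPM (SD, n = 2), a log2 fold change of -2.13 (SE 0.42). Both knockout libraries were below both WT WD libraries, but with 35.3, 27.0, 7 and 7.01 estimated counts in all, edgeR's adjusted p was 0.755.

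WT WD replicate 2 went against its tissue label. Values with and without it are therefore given for the genes, for the lists of related genes and for some of the marker lists. The summed level of 15 hypothalamus markers was 1826 CPM in WT WD replicate 1, 28.6 CPM in WT WD replicate 2, and 1330 and 1284 CPM in the knockout libraries. Pmch, the precursor of melanin-concentrating hormone and the most abundant marker, was at 770, 6.60, 374 and 560 CPM in the same order, and Avp, the vasopressin precursor, at 336, 2.31, 197 and 203 CPM. Nkx2-1 and Nr5a1, factors that define ventral hypothalamic neurons, were at 0 in WT WD replicate 2. In that library 12 thalamus markers summed to 4276 CPM, against 814 CPM in WT WD replicate 1 and 859 and 1151 CPM in the knockout libraries. Adarb1, an RNA editing enzyme and the most abundant of them, was at 208, 953, 244 and 316 CPM. Pan-neuronal markers were at 3315, 5086, 3228 and 3557 CPM. Summed astrocyte markers stayed between 2273 and 2661 CPM over the 4 libraries, microglia markers between 309 and 365 CPM and endothelium markers between 233 and 274 CPM, and oligodendrocyte markers were at 5080 CPM in WT WD replicate 1 and at 6063 to 6307 CPM in the others. With all libraries, 1 of the 15 hypothalamus markers was higher and 0 were lower in both knockout libraries, beside 20.6% and 19% of all genes. Their median log2 fold change was 0.51. Against WT WD replicate 1 alone, 1 was higher and 11 were lower in both, beside 5385 and 5365 of 14325 genes. The median then turned to -0.48. Fewer cells of a type and less RNA per cell cannot be told apart in bulk tissue.

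**Figure D1:**
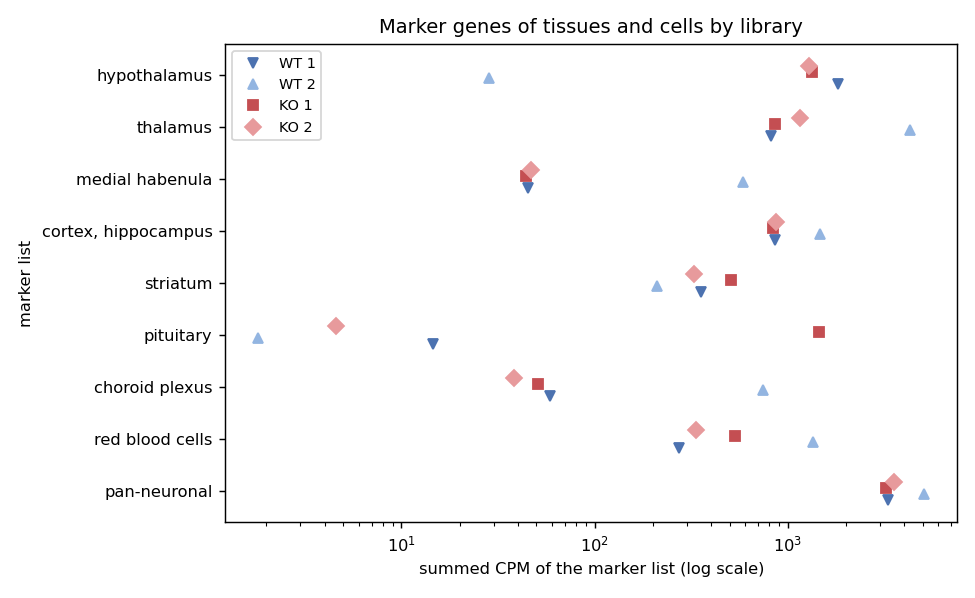
Summed CPM (log scale) of the genes of 9 marker lists in each of the 4 libraries, where WT is WT WD and KO is Tas1r3-/- WD. WT WD replicate 2 lies at 28.6 CPM for the hypothalamus, far to the left of the other libraries, and to their right for thalamus, medial habenula and choroid plexus, and Tas1r3-/- WD replicate 1 alone is high for the pituitary.

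Over all tested genes the root mean square log2 difference between libraries was 0.759 between the WT WD libraries and 0.371 between the knockout libraries. WT WD replicate 1 differed from the knockout libraries by 0.410 and 0.416, and WT WD replicate 2 by 0.748 and 0.719. WT WD replicate 1 was thus closer to both knockout libraries than to the other library of its own group. Tas1r3-/- WD replicate 1 held pituitary transcripts, with growth hormone (Gh) at 12.2, 0, 763 and 2.46 CPM and prolactin (Prl) at 1.38, 0, 499.6 and 0.527 CPM. Here and below, series of 4 values give both WT WD libraries first, by replicate number, and then both knockout libraries.

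Egr1 (ENSMUSG00000038418), a widely used marker of recent neuronal activity, lies on chromosome 18 from 34992876 to 34998049 on the plus strand of GRCm39. It was at 75.2, 78.1, 130.4 and 143 CPM, from 437, 472.6, 810 and 813.6 estimated counts. The groups did not overlap, the WT WD libraries differed by 1.04-fold and the knockout libraries by 1.097-fold. The means were 76.7 ± 2.03 CPM in WT WD and 136.7 ± 8.93 CPM in Tas1r3-/- WD (SD, n = 2), 1.78-fold higher in the knockout (log2 fold change 0.83, SE 0.13). Leaving out each library in turn gave 0.76 to 0.90.

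Egr3 (ENSMUSG00000033730; chromosome 14, 70314350 to 70320063, plus strand), an Egr factor induced after Egr1 and known for roles in muscle spindles and memory, differed most. Its levels were 3.27, 2.64, 14.97 and 15.3 CPM, or 19.0, 16.1, 93.5 and 87.4 estimated counts. Both WT WD libraries were low and both knockout libraries high, and the Poisson 95% intervals of the WT WD libraries (1.97 to 5.11 and 1.51 to 4.29 CPM) lay below those of the knockout libraries (12.1 to 18.3 and 12.2 to 18.9 CPM), which cover counting error only. The fold was 5.09 (log2 fold change 2.35, SE 0.26), and 2.20 to 2.51 on the log2 scale with a library left out. By log2 fold change Egr3 ranked 17 of 14325 genes.

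Egr4 (ENSMUSG00000071341; chromosome 6, 85485678 to 85490675, minus strand), the Egr member most restricted to neurons, was at 7.23, 2.48, 9.18 and 9.14 CPM. Both knockout libraries were above both WT WD libraries, but the difference depended on which WT WD library was used. The log2 fold change was 0.92 (SE 0.53) with all libraries, but 0.34 when WT WD replicate 2 was left out and 1.88 when replicate 1 was. The Poisson interval of WT WD replicate 1, 5.21 to 9.77 CPM, held both knockout values.

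Nr4a1 (ENSMUSG00000023034; chromosome 15, 101151980 to 101172681, plus strand), also called Nur77, was at 23.8, 22.1, 30.9 and 28.1 CPM. The knockout libraries were above the WT WD libraries by a small step, from means of 22.9 ± 1.15 to 29.5 ± 1.98 CPM (SD, n = 2), which is 1.29-fold (log2 fold change 0.36, SE 0.16). Leaving out a library gave 0.29 to 0.42, and the counting interval of Tas1r3-/- WD replicate 2, 23.9 to 32.8 CPM, overlapped that of WT WD replicate 1, 20.0 to 28.1 CPM.

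Nr4a3 (ENSMUSG00000028341; chromosome 4, 48045153 to 48086447, plus strand), also called Nor1, was at 7.75, 17.0, 22.5 and 22.0 CPM. The groups did not overlap, with WT WD replicate 1 lowest and the knockout libraries 1.03-fold apart. The fold was 1.79, a log2 fold change of 0.84 (SE 0.39), and the log2 fold change rose to 1.52 when WT WD replicate 2 was left out and fell to 0.39 when replicate 1 was. Nr4a3 and Tas1r3 lie on the same chromosome.

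Nr4a2 (ENSMUSG00000026826; chromosome 2, 56996842 to 57014331, minus strand), also called Nurr1, was the exception. Its levels were 12.6, 70.2, 18.7 and 19.2 CPM, so that WT WD replicate 2 stood above the other libraries, WT WD replicate 1 below them, and the groups overlapped. The log2 fold change was -1.13 (SE 0.78) with all libraries and 0.59 without WT WD replicate 2, where both knockout libraries were above the remaining WT WD library. With replicate 1 of WT WD left out instead, it was -1.89. The direction of Nr4a2 was thus set by which WT WD library was used.

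**Figure D2:**
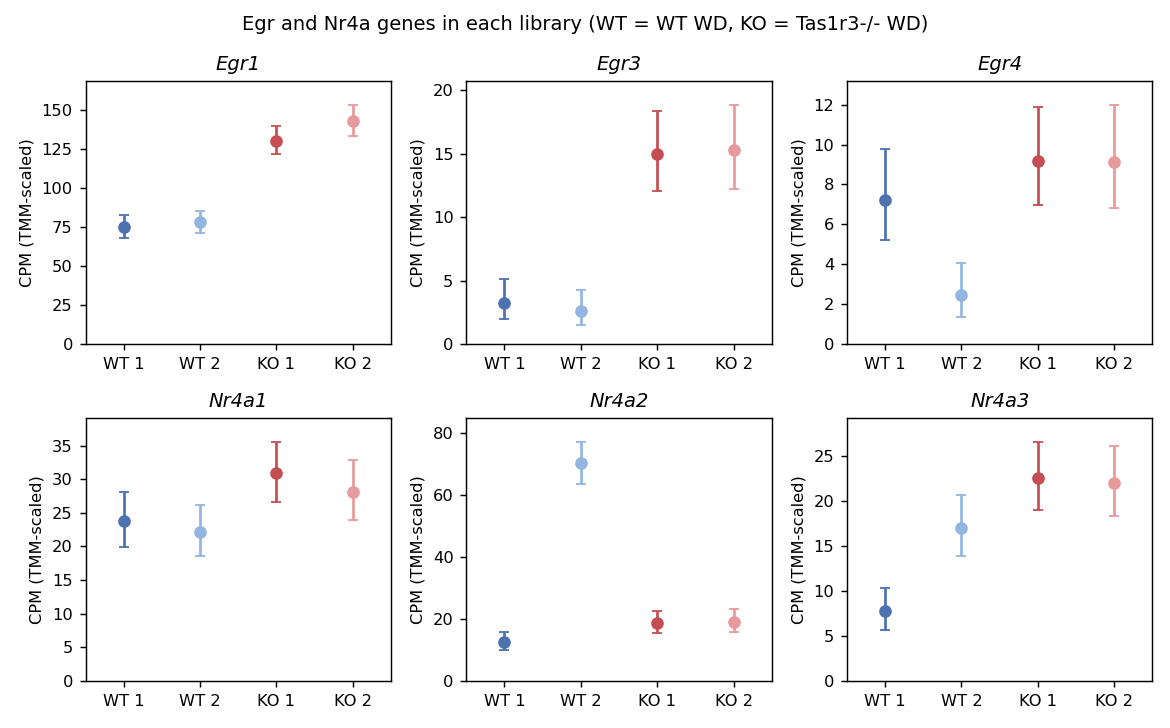
TMM-scaled CPM of the 6 genes in each library, with bars for the Poisson 95% interval of the count and each axis starting at 0. Egr1 and Egr3 show a clear step between the groups and small gaps within them, whereas Nr4a2 is at 70.2 CPM in WT WD replicate 2 and between 12.6 and 19.2 CPM in the other libraries.

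Both knockout libraries were above both WT WD libraries for 5 of the 6 genes, and for 20.6% of all tested genes. Without WT WD replicate 2 both knockout libraries were above the remaining WT WD library for 6 of 6, against 37.6% of all genes. The genes were chosen on this contrast, so nothing is read from these shares. No gene of the 14325 was called by edgeR's quasi-likelihood test at an adjusted p under 0.05 with at least a 1.5-fold change (0%), the smallest adjusted p being 0.755, and 772 genes (5.39%) had an unadjusted p under 0.05. DESeq2 called 8 genes (0.0558%), of which 7 (0.0489%) were higher in the knockout, and limma-trend called 0. Without WT WD replicate 2, edgeR called 32 of 14694 genes (0.218%), in a fit where the single WT WD library was assumed to vary like the knockout libraries. These calls are given as the background over all genes, and no call is given for the 6 genes. Ranked from the top by log2 fold change, Egr4 was at 1.59%, Nr4a3 at 2.05%, Egr1 at 2.13%, Nr4a1 at 12.8% and Nr4a2 at 98.4% of the tested genes. A fold of at least 1.5 towards the knockout was seen for Egr1, Egr3, Egr4 and Nr4a3, beside 5.17% of all genes, and with both knockout libraries above both WT WD libraries for the same 4, beside 4.01%. With 2 libraries against 2, an exact permutation test of a single gene cannot go below p = 0.333.

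**Figure D3:**
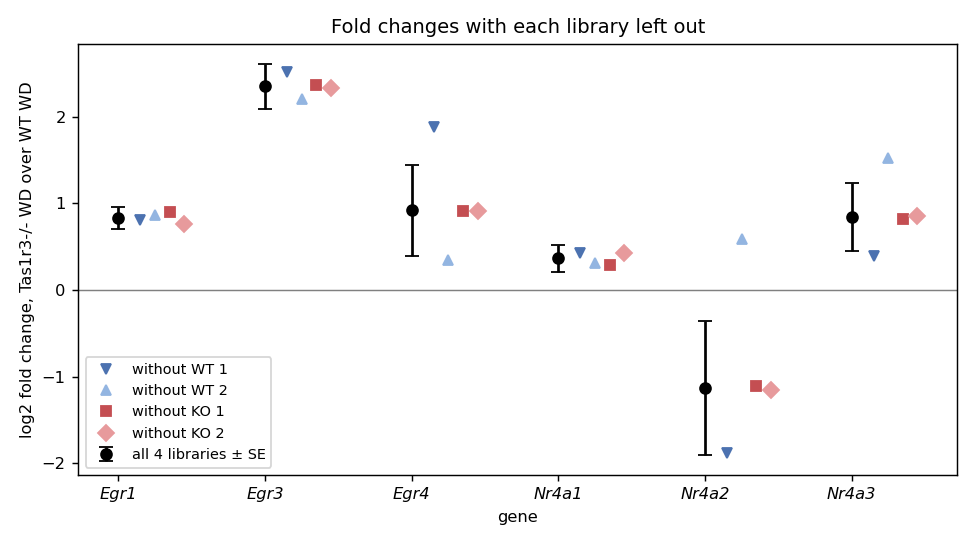
Log2 fold change of each gene, Tas1r3-/- WD over WT WD, from all 4 libraries (black, with the SE from the edgeR fit) and after leaving out 1 library at a time (coloured symbols). The symbols stay close together for Egr1, Egr3 and Nr4a1, spread from 0.34 to 1.88 for Egr4, and cross 0 for Nr4a2 when WT WD replicate 2 is left out.

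Within the groups the genes moved unevenly. From WT WD replicate 1 to replicate 2, Nr4a2 was 5.46-fold and Nr4a3 2.15-fold higher and Egr4 2.69-fold lower, whereas Egr1, Nr4a1 and Egr3 differed by 1.04-, 1.07- and 1.21-fold. Of all genes, 1.69% differed between the WT WD libraries by at least as much as Nr4a2, 5.72% as Egr4 and 8.87% as Nr4a3. The knockout libraries were alike for each of the 6 genes, with a largest difference of 1.098-fold. Of all genes, 53.2% differed between the knockout libraries by at least as much as Egr1 and 52.6% as Nr4a1, the least alike of the 6. The part of the pituitary transcripts in these levels was not tested.

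Nr4a2 is a known marker of the medial habenula, an epithalamic nucleus next to the thalamus, so markers of that nucleus were set beside it. The 7 markers were chosen after values had been seen. They summed to 45.1, 586, 43.9 and 46.7 CPM. Gpr151, a habenular orphan receptor, was at 1.72, 106, 1.93 and 1.58 CPM, and Nwd2, the most abundant of the list, at 15.8, 262, 21.6 and 18.3 CPM. Pou4f1, the factor that defines the nucleus, was at 0.344, 45.4, 0.161 and 0.176 CPM. Choroid plexus markers summed to 58.5, 748, 51.2 and 38.1 CPM, a peak that came mostly from Ttr, transthyretin, at 4.30, 680, 3.06 and 0.703 CPM. Folr1, Kcnj13 and Aqp1 were also highest in WT WD replicate 2, at 9.08, 10.4 and 3.30 CPM, whereas Kl, at 12.2, 12.05, 9.66 and 5.62 CPM, and Clic6, at 40.96, 33.4, 35.6 and 30.9 CPM, were highest in WT WD replicate 1. Red blood cell markers summed to 273, 1351, 533 and 336 CPM. The sums of these lists and Nr4a2 were each highest in WT WD replicate 2, and their part in the level of Nr4a2 was not tested.

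Cortex and hippocampus markers had no common direction. Of 10 tested, 7 had a lower mean in Tas1r3-/- WD and 8 overlapped between the groups, as did 8654 of all 14325 genes, with a median log2 fold change of -0.28. Against WT WD replicate 1 alone, 6 of 10 were higher in both knockout libraries, beside 37.6% of all genes, and the median turned to 0.16. Slc17a7, a vesicular glutamate transporter gene, was at 10.8, 266, 2.41 and 11.95 CPM, and Cck, the cholecystokinin precursor, at 9.98, 165, 13.0 and 17.4 CPM, both highest in WT WD replicate 2 and named after their values were seen. Tbr1, a factor of cortical glutamatergic neurons, was at 2.24, 2.48, 6.76 and 5.45 CPM, higher in both knockout libraries as Egr1 and Egr3 were. Of the 12 cortex and hippocampus markers listed, those reported here summed to 863, 1462, 837 and 871 CPM. The most abundant of them, Camk2a, was at 647, 845, 659 and 661 CPM. Striatum markers summed to 354, 210, 510 and 329 CPM, led by Penk. The knockout mean was the higher for all 8 (median log2 fold change 0.54). Leaving out WT WD replicate 2 gave a median of 0.29, and leaving out Tas1r3-/- WD replicate 1 a median of -0.18. With all libraries, 1 of 8 striatum markers was higher in both knockout libraries, beside 20.6% of all genes. Against WT WD replicate 1 alone it was 4 of 8, beside 37.6%. Thalamus markers, although far lower than in WT WD replicate 2, were above WT WD replicate 1 in both knockout libraries for 10 of 12 genes, beside 37.6% of all genes. The part of these markers in the levels of the Egr and Nr4a genes was not tested.

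Levels of the genes were compared with each other as CPM per kilobase of the GENCODE canonical transcript, over the 4 libraries. Egr1 was highest at 23.7 ± 7.80 CPM per kilobase (SD, n = 4; range 16.7 to 31.8), followed by Nr4a1 at 10.3 ± 1.58, and the ranges of these genes did not overlap. Nr4a2 followed at 6.33 ± 5.64, Nr4a3 at 3.03 ± 1.20, Egr3 at 2.08 ± 1.62 and Egr4 at 1.498 ± 0.674 CPM per kilobase. The ranges of neighbours from Nr4a1 down to Egr4 overlapped, so their order does not hold beyond the spread of all 4 libraries. The overlap of Nr4a1 and Nr4a2 came from WT WD replicate 2, where Nr4a2 was at 14.7 CPM per kilobase. In the other libraries Nr4a2 was at 2.64 to 4.02 and Nr4a1 at 9.32 to 12.1 CPM per kilobase. By library, Egr3 was at 0.751, 0.607, 3.44 and 3.51 CPM per kilobase and Egr4 at 1.55, 0.530, 1.96 and 1.95, so that Egr4 was the higher in WT WD replicate 1 only.

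Egr1, Egr4, Nr4a1 and Nr4a3 were each represented by 1 RefSeq transcript. The 3 transcripts of Egr3 shared its counts unevenly. The transcript with most Egr3 counts overall held 53.5% and 7.13% of them in WT WD, against 70.1% and 90.2% in the knockout, but the WT WD shares rest on 19.0 and 16.1 estimated counts in all. In estimated counts that transcript had 10.2, 1.15, 65.6 and 78.9, and the other transcripts together were never above 30 counts in a library. The 2 transcripts of Nr4a2 both rose in WT WD replicate 2, with 47.3 and 205 estimated counts in WT WD for the first and 25.6 and 219 for the second, against 68.2 and 34.5 and 47.8 and 74.5 in the knockout libraries. How reads shared by transcripts of a gene were divided was set by the authors' quantification, and gene sums do not depend on it.

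The corepressors Nab1 and Nab2, which bind Egr proteins and limit them, were both higher in both knockout libraries, as were 20.6% of all genes. Nab2 was at 24.3, 23.1, 34.1 and 38.1 CPM (log2 fold change 0.61, SE 0.15) and Nab1 at 21.2, 33.5, 37.3 and 34.4 CPM (0.39). Their groups did not overlap, although edgeR's adjusted p was 0.755 for Nab2 and 0.760 for Nab1, and for Nab1 WT WD replicate 2 was close to the knockout libraries. The RXR partners of Nr4a1 and Nr4a2 showed no common direction. Rxra was at 84.9, 45.7, 84.2 and 97.3 CPM and Rxrg at 35.6, 6.60, 33.5 and 29.7 CPM, both low in WT WD replicate 2, and Rxrb, at 68.3, 80.9, 65.7 and 64.3 CPM, was lower in both knockout libraries. Against WT WD replicate 1 alone, both corepressors and 0 of the 3 RXR genes were higher in both knockout libraries, beside 37.6% of all genes, and the RXR median turned from 0.48 to -0.072.

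Upstream of the genes, the SRF, ternary complex, CREB and MEF2 factors and their coactivators showed small differences. Of 17 tested, 7 were higher in both knockout libraries and 0 were lower, beside 20.6% and 19% of all genes, and the median log2 fold change was 0.13 beside -0.0059 over all genes. Among those whose libraries did not overlap, the largest differences were in Mrtfb, an actin-regulated SRF coactivator (0.48), Elk4, a ternary complex factor (0.45), and Ep300, a histone acetyltransferase that CREB recruits (0.40). Mef2c (-0.81) and Mef2a (-0.68), calcium-regulated factors, had larger differences in the list but overlapped, with Mef2c at 21.3, 66.2, 28.3 and 21.6 CPM and Mef2a at 62.0, 215, 80.0 and 92.8 CPM, both highest in WT WD replicate 2. Srf itself was at 46.8, 45.2, 45.7 and 55.2 CPM and overlapped, and Creb1 was at 32.4, 36.0, 48.9 and 41.3 CPM; these genes were named after their values were seen. Of 19 genes of the Ras-ERK cascade, 6 were higher and 5 lower in both knockout libraries, with a median of 0.0090. Among them were the scaffold Ksr2 (0.74) and the GTPase Nras (0.42), and Mapk7, which encodes ERK5, was lower (-0.48). Of 11 tested ERK feedback inhibitors, which are themselves induced by ERK, 3 were higher, including Spred1 (0.45) and Spry4 (0.44), and 1, the phosphatase Dusp7, was lower (-0.23). edgeR called 0 genes in each of these lists. Against WT WD replicate 1 alone, beside 37.6% of all genes, 10 of 17 SRF, CREB and MEF2 genes were higher in both knockout libraries (median 0.11), 9 of 19 Ras-ERK genes (median -0.0047) and 7 of 11 feedback inhibitors, whose median turned from -0.062 to 0.17.

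The other immediate early genes leaned the same way as Egr1 and Egr3. Of 28 tested, 15 were higher and 4 lower in both knockout libraries, beside 20.6% and 19% of all genes, with a median log2 fold change of 0.37. Against WT WD replicate 1 alone, 22 of 28 were higher in both, beside 37.6% of all genes. Fosb, an AP-1 subunit, was at 5.68, 4.13, 21.9 and 34.1 CPM (2.51, SE 0.33), Fosl2, which encodes the AP-1 subunit Fra-2, at 13.3, 8.25, 50.2 and 63.2 CPM (2.40, SE 0.28), and Atf3, a stress-induced factor, at 1.38, 0.825, 3.70 and 4.22 CPM (1.83, SE 0.47). Their adjusted p in edgeR was 0.755, and DESeq2 called Fosb and Fosl2. These 3 genes had larger log2 fold changes than Egr1, and Fosb and Fosl2 larger than Egr3. The list had been seen to be higher before it was used here and is not independent evidence of its direction.

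Not every immediate early gene followed. Fos was at 46.6, 47.4, 66.2 and 71.2 CPM (0.55), Homer1, a synaptic scaffold, at 23.6, 22.8, 43.9 and 37.6 CPM (0.81), and Arc, a dendritic capsid protein gene, at 18.9, 23.3, 25.6 and 33.2 CPM (0.48), each higher in both knockout libraries. Npas4, a factor induced by calcium entry in neurons, was at 18.4, 16.5, 13.7 and 16.2 CPM (-0.23), lower in both, and so were Ier3, Ier5 and Jund. Sik1, a CREB target, overlapped at 34.1, 43.9, 35.4 and 41.8 CPM. The genes of this paragraph were chosen after their values were seen.

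**Figure D4:**
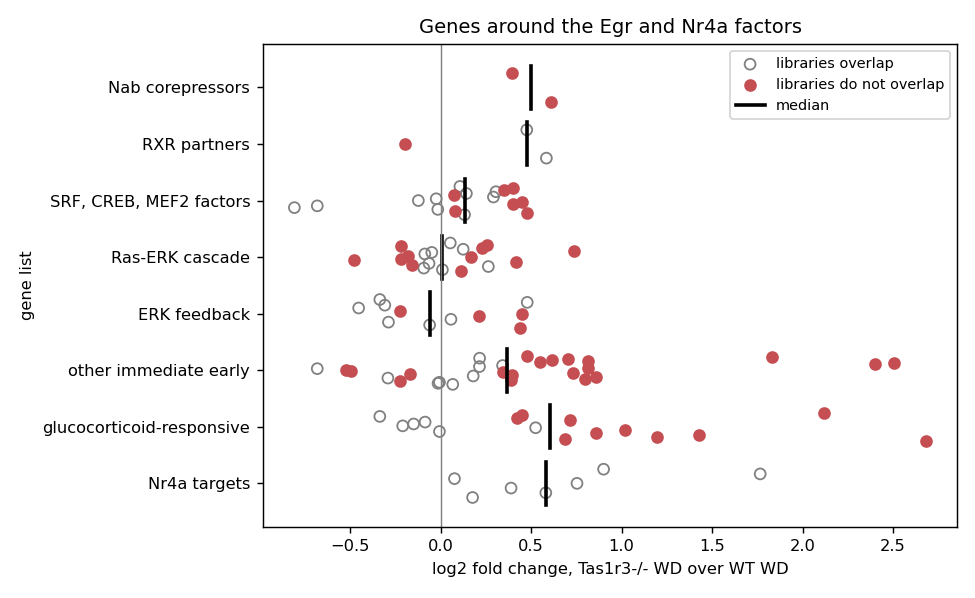
Log2 fold change, Tas1r3-/- WD over WT WD, of each tested gene in 8 lists around the Egr and Nr4a factors, with filled points where the libraries of the groups do not overlap and a bar at the list median. Medians lie near 0 for the Ras-ERK cascade and its feedback inhibitors and at 0.37 for the other immediate early genes, whereas all 7 Nr4a targets overlap.

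Textbook targets of the Nr4a proteins in dopamine neurons and the stress axis overlapped between the groups. The knockout mean was higher for all 7, with a median log2 fold change of 0.58, but 0 of 7 were higher in both knockout libraries, beside 20.6% of all genes. The median was -0.0023 without WT WD replicate 2. Pomc, the precursor of melanocortins and of corticotropin, was at 112, 2.48, 344 and 45.3 CPM, low in WT WD replicate 2 and highest in the library with pituitary transcripts. Ret, a growth factor receptor and the next named gene, was at 49.7, 50.9, 46.7 and 59.4 CPM.

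Glucocorticoid-responsive genes, which the glucocorticoid receptor induces when corticosterone rises, were set beside the Egr and Nr4a genes. Of 16 tested, 10 were higher and 0 lower in both knockout libraries, beside 20.6% and 19% of all genes, and the median log2 fold change was 0.60. Against WT WD replicate 1 alone, 14 of 16 were higher in both, beside 37.6% of all genes, with a median of 0.81. Zbtb16, a zinc-finger factor, was at 10.2, 7.43, 73.7 and 39.2 CPM (2.68, SE 0.38), and Cdkn1a, which encodes the cell cycle inhibitor p21, at 8.26, 6.27, 28.8 and 34.4 CPM (2.12, SE 0.23). Sgk1, a kinase gene induced by corticosteroids, was at 24.4, 107, 161 and 193 CPM (1.43, SE 0.67), with WT WD replicate 1 lowest, as for Nr4a3. edgeR called 0 of the list with an adjusted p of 0.755 for each of these 3 genes, and DESeq2 called Zbtb16 and Cdkn1a. Genes of the list that did not follow included the metallothionein genes Mt1, at 243, 291, 243 and 238 CPM, and Mt2. Per1 is also on the list of immediate early genes, Dusp1 on that of ERK feedback inhibitors, and Pomc and Crh, named as Nr4a targets, are hypothalamus markers too.

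To find genes with the same pattern, log2 CPM was centred on each gene's mean and the mean of the 6 profiles taken, which was -0.55, -0.25, 0.39 and 0.40. The search used all 4 libraries, WT WD replicate 2 included, and was not repeated without it. Likeness was the root mean square log2 difference from that profile over the 4 libraries, among 10862 other genes with a mean of at least 10 CPM. Eno1, a glycolytic enzyme gene, was nearest at 0.0249, with 259, 307, 501 and 493 CPM. It has a near-identical copy, Eno1b, with which it can share reads, so its values are uncertain. In DESeq2 the log2 fold change was -1.35 for Eno1b and 0.81 for Eno1, and the division of reads between them was not tested. Next were Fat3, a giant cadherin gene, at 0.0845, Slc38a2, an amino acid transporter gene, at 0.0901, Rnf144b, a ubiquitin ligase gene, at 0.0931, Uba6, a ubiquitin-activating enzyme gene, at 0.0970, and Tsc22d3, the glucocorticoid-induced gene of the list above, at 0.0972. Mertk, a phagocytic receptor gene, at 0.0994 and Swt1 at 0.105 completed the 8 nearest. Among the 6 themselves Egr1 was closest to their mean at 0.100, and Nr4a2 farthest at 1.05. With a mean of at least 1 CPM required in place of 10, only Eno1 of the 8 was again among the nearest 8.

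**Figure D5:**
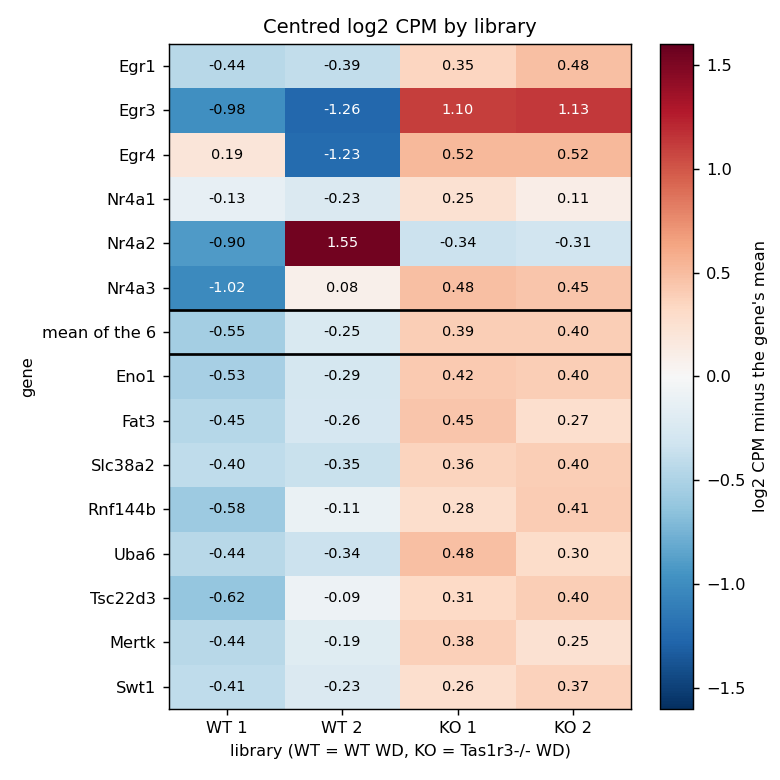
Log2 CPM minus the gene's own mean in each library (colour and number) for the 6 genes, their mean profile and the 8 genes most like that mean. The knockout columns are above 0 for 5 of the 6 genes and for the 8 genes below the mean, while Nr4a2 is at 1.55 in WT WD replicate 2 alone.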

How the data were processed

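The authors aligned Ion Torrent reads of barcoded, ribosome-depleted poly(A) RNA libraries with STAR (Partek Flow, genome mm39), quantified RefSeq transcripts and deposited estimated counts per transcript and library, without normalization. Of these values 13% are whole numbers, and no transcript totals under 10. A RefSeq table named the gene of 30783 of 30930 transcripts. The other 147 held between 0.583% and 2.66% of a library and were left out. Estimated counts were summed per gene symbol and rounded for the count models. The design had assumed counts per gene. The main fit was edgeR 4.0.16 in R 4.3.3 (TMM, filterByExpr, quasi-likelihood test, Benjamini-Hochberg adjustment over all 14325 genes, calls at an adjusted p under 0.05 and at least 1.5-fold). DESeq2 1.42.0, which the study's methods name, and limma 3.58.1 were alternatives. SE is the log2 fold change divided by the square root of F. CPM are TMM-scaled, and the common biological coefficient of variation was 0.226. The fits were tested on simulated data, and no outcome of that is given here.

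The genes, lists and rules were chosen with earlier results of these data known. Named from each list were up to 3 genes of at least 1 CPM with the largest change among those whose libraries did not overlap, or else the 2 most abundant. Other genes named from the lists were chosen later, also where this is not said beside them. Coordinates are from GENCODE M39 on GRCm39, and promoter windows from RefSeq. The methods state 3 mice per group, and 2 libraries per group were analysed here. Of the cortex and hippocampus markers, 1 is not reported here.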

Additional observations from a re-analysis of the deposited data

How the results depend on the processing

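Other scalings, filters, tools and the block gave log2 fold changes of 0.83 to 0.84 for Egr1, 2.24 to 2.36 for Egr3, 0.91 to 1.04 for Egr4, 0.36 to 0.37 for Nr4a1, -1.14 to -0.65 for Nr4a2 and 0.84 to 0.93 for Nr4a3. Leaving out a library moved Egr4 between 0.34 and 1.88 and Nr4a3 between 0.39 and 1.52. Both knockout libraries were above both WT WD libraries for 5 genes with TMM, RLE factors or total counts, and for 5 to 6 with a library left out. edgeR called 0 genes with RLE factors, total counts, other filters or no fold threshold, and limma-trend called 0, whereas DESeq2 called 8, of which 4 were on the lists (Fosb, Fosl2, Zbtb16 and Cdkn1a). With a library left out edgeR called 0 to 2121 genes, 2121 without WT WD replicate 1 and 32 without replicate 2 of that group, and 0 to 85 genes of the lists, 85 and 8 in those fits. A lone library was then assumed to vary like the other group. With replicate number as a block, edgeR called 0 genes, with a smallest adjusted p of 0.141. Deviations of same-numbered libraries from their group means had a correlation of r = 0.0821. The labels give no more than the number, and whether same-numbered libraries shared a batch was not tested. Without WT WD replicate 2 the direction of Nr4a2 turned from -1.13 to 0.59. The scalings moved the median of all genes by less than 0.1. Depth leaves Egr3 and Egr4 with fewer than 20 counts in some WT WD libraries, and the cause of the marker differences between libraries was not tested.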
